A study of Mus musculus with 9 samples.

Results

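Transcripts of 10 receptors of the tumour necrosis factor (TNF) receptor superfamily were examined in splenic B cells, out of 24459 gene rows measured. They were chosen by name as receptors for BAFF and APRIL (Tnfrsf13b, Tnfrsf13c and Tnfrsf17), for CD40 ligand (Cd40), for TNF and lymphotoxin (Tnfrsf1a, Tnfrsf1b and Ltbr), for GITR ligand (Tnfrsf18), together with Fas and the receptor TROY (Tnfrsf19), and each had a row. The study asked how B cells of the follicular gate that carry little or no surface IgD, called BDL, differ from follicular (FO) and marginal zone (MZ) B cells. Spleens of naive mice aged 8 to 10 weeks were used, with the cells of 5 mice pooled for each sort, so that a library stands for a pool and not for an animal. FO and BDL shared a gate of B220+ cells with intermediate IgM and CD21, CD23 and no CD93, within which FO had high and BDL low IgD. MZ B cells were B220+ with high IgM and high CD21 and had neither CD23 nor CD93. Each subset has 3 RNA libraries, whose titles carry 3 dates. Every date has 1 library of each subset, so that replicate 2 of FO, BDL and MZ share a date. The titles do not say what was done on these dates, which are called sort dates here for short. Only the titles of replicate 2 begin with the word Splenic. The labels give the strain as C57/BL6, whereas the study's text names B10.PL for the RNA-seq, and which of them holds could not be settled here.

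B cells depend on BAFF, a ligand made largely by other cells, which binds BAFFR (Tnfrsf13c), TACI (Tnfrsf13b) and, more weakly, BCMA (Tnfrsf17), the receptor of plasma cells that also binds APRIL. BAFFR and CD40 both release the kinase NIK from a complex of TRAF adaptors and so open the non-canonical NF-κB pathway, while TNF receptors, GITR and CD40 also reach canonical NF-κB through TRAFs. FO B cells recirculate through follicles and answer to T cell help through CD40, whereas MZ B cells are innate-like cells that answer readily without T cells, a setting in which TACI is known to act.

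The start regions of the 3 receptors whose levels the results turn on most, and which had an entry in the RefSeq promoter table of build GRCm38.p6, are given first, because they are the regulatory sequence next to transcripts that differed between subsets. Each window runs 5′ to 3′ from 250 bases before to 50 bases after a start site. The capitals mark CANNTG, the E-box, whose fixed letters read the same on both strands and which is bound by E proteins such as E2A, factors of B cell development. Tnfrsf19 has a pair of starts in the table. Cd40 is named only. The windows lie at chr15:82224331-82224630 on the minus strand for Tnfrsf13c, at chr4:156026072-156026371 on the plus strand for Tnfrsf18, and at chr14:61037938-61038237 and chr14:61046806-61047105 on the minus strand for Tnfrsf19.
Tnfrsf13c: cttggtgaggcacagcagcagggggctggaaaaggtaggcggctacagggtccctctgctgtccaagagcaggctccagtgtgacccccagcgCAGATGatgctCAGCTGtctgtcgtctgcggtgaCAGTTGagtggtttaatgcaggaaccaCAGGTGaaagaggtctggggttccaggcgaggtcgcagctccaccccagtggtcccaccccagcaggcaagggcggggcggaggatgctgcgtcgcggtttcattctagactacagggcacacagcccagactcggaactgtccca
Tnfrsf18: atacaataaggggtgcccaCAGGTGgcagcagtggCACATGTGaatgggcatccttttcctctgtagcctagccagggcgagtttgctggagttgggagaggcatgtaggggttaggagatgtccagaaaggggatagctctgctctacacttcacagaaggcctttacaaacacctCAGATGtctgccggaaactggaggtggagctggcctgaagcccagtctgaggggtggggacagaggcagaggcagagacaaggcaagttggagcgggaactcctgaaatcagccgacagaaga
Tnfrsf19, first window: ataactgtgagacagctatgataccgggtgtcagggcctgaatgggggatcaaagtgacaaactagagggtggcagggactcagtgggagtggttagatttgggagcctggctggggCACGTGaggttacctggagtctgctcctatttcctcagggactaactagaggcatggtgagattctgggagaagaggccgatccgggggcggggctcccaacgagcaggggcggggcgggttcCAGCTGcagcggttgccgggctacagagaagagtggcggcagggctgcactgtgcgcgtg
Tnfrsf19, second window: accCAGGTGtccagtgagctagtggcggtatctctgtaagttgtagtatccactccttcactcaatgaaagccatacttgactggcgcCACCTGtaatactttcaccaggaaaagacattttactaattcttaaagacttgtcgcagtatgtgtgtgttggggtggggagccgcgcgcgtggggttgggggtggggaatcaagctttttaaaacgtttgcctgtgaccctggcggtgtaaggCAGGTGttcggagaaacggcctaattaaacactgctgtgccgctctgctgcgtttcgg
The Tnfrsf13c window held 4 matches to CANNTG and the Tnfrsf18 window also 4, of which a pair overlap in the run CACATGTG. The Tnfrsf19 windows held 2 and 3. Of all 32851 windows of this length, 72.3% held at least 1 match, so that holding the motif does not set these genes apart. A match is a description of letters and no binding was measured.

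Levels are given as FPKM, fragments of a transcript scaled by its length and by the mapped fragments of the library, as the authors computed them, so that they can be set side by side between genes. The deposited values hold no counts. From the spacing of the lowest values, 1 fragment on a transcript of 1 kb was worth 0.0138 to 0.0186 FPKM, and the libraries lay within 0.907 and 1.22 times the depth of FO replicate 1, so that fragment numbers below are estimates. The B cell markers Cd79a, Cd79b and Ms4a1 were high in all 9 libraries and passed the test in no comparison. Fcer2a, which encodes CD23, averaged 496 FPKM in FO, 427 FPKM in BDL and 29.6 FPKM in MZ, and Cr2, which encodes CD21, averaged 141, 107 and 454 FPKM, as the CD23 and CD21 gates of the labels had it. Cd93, a protein gated out of all subsets, averaged 3.90 FPKM in FO, 12.5 FPKM in BDL and 1.41 FPKM in MZ. The study's flow cytometry found more CD93 protein on BDL than on FO or MZ. IgD transcript was not analysed here. Since these are bulk libraries, fewer cells carrying a transcript and less of it per cell cannot be told apart.

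The 10 receptors fell into 3 ranges of level. Tnfrsf13c, Cd40 and Tnfrsf13b stood highest, with means over the 9 libraries of 99.1, 48.3 and 32.6 FPKM. Tnfrsf18, Tnfrsf1b and Fas followed at 11.3, 7.89 and 2.43 FPKM. Tnfrsf19, Tnfrsf1a, Ltbr and Tnfrsf17 lay below 0.5 FPKM on average. The limma test was run on log2(FPKM + 0.1) for rows averaging 0.5 FPKM or more, which took in 6 of the 10 receptors among 11597 rows, each of the 6 being above that minimum in every subset. A row was called at a Benjamini-Hochberg adjusted p under 0.05 over all rows tested and a fold change of at least 2.

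**Figure D1:**
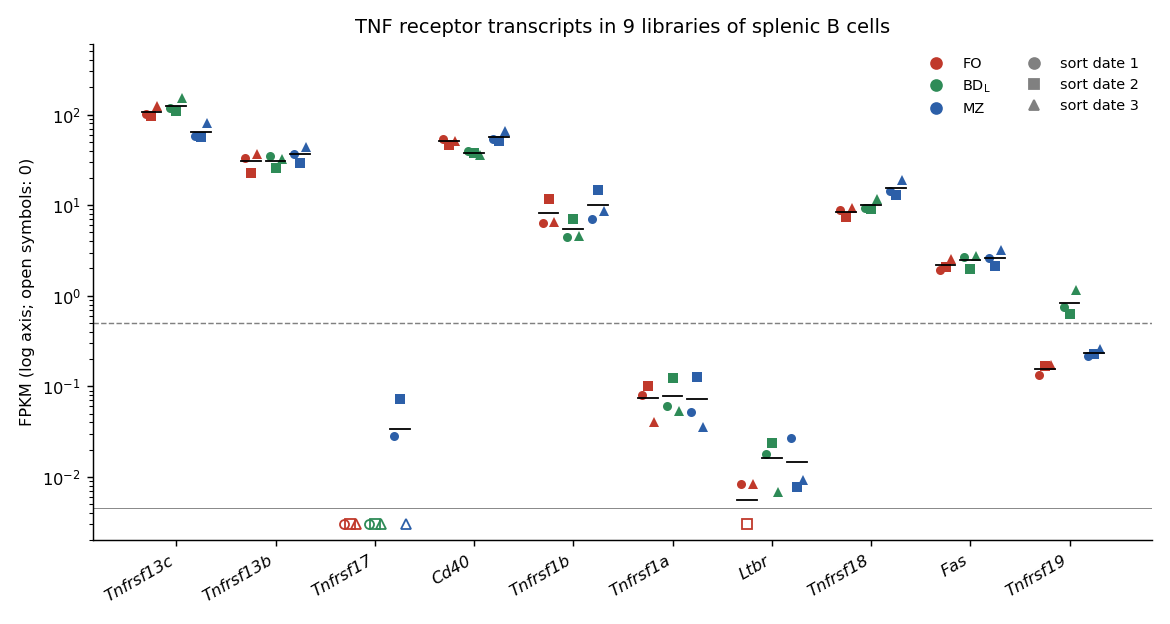
FPKM on a log axis of each receptor in the 9 libraries, with the subset by colour, the sort date by symbol, a bar at the mean of 3 libraries, open symbols for values of 0 and a dashed line at the minimum of 0.5 FPKM. Tnfrsf13c is lowest in MZ, Cd40 lowest in BDL, Tnfrsf18 highest in MZ, and Tnfrsf19 highest in BDL.

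By that rule 0 of the 6 receptors were called in any comparison, against 1.91% of all rows between BDL and FO, 7.8% between BDL and MZ, and 8.92% between FO and MZ. At an unadjusted p under 0.05 in limma there were 1, 4 and 2 receptors, against 24.3%, 39.9% and 37.8% of all rows. At an adjusted p alone, with no minimum on the fold change, 0 receptors passed between BDL and FO, 3 between BDL and MZ (Tnfrsf13c, Cd40 and Tnfrsf18) and 2 between FO and MZ (Tnfrsf13c and Tnfrsf18), against 7.73%, 28.1% and 27.1% of all rows. The values of the compared subsets did not overlap for 1, 3 and 2 receptors, against 34.8%, 38.9% and 46.1% of rows. Below, a receptor is said to be higher or lower at the adjusted p alone, and each such difference was smaller than 2-fold. Any pair of the 3 comparisons shares the libraries of 1 subset. With 3 libraries against 3, the smallest p that an exact permutation test can give is 0.1, so such a test cannot pass 0.05 for a single gene.

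Of the BAFF receptors, BAFFR transcript was lower in MZ than in either follicular subset, while TACI transcript passed no test. Tnfrsf13c, on chromosome 15 from 82052174 to 82054790 of NCBIM37 on the minus strand, encodes BAFFR, the receptor that carries the BAFF survival signal in mature B cells. Its FPKM in replicates 1 to 3 was 101.8, 96.4 and 123.6 in FO. It was 117.1, 108.3 and 150.9 in BDL. In MZ it was 57.4, 56.6 and 79.7, and every MZ library lay below every library of the other subsets. Tnfrsf13c was 1.94 times as high in BDL (125 ± 22.5, SD, n = 3) as in MZ (64.6 ± 13.1, SD, n = 3), a log2 difference of 0.96 with a standard error of 0.18 and an adjusted p of 0.00536 in limma. The adjusted p stayed below 0.05 in 25 of 25 other settings, from 1.30e-04 to 0.0253. The fold crossed 2 when 1 library was left out, with a log2 difference of 1.003 without BDL replicate 1, 1.06 without BDL replicate 2 and 1.12 without MZ replicate 3. FO (107 ± 14.4, SD, n = 3) was 1.66 times as high as MZ, a log2 difference of 0.74 with an adjusted p of 0.0173. This adjusted p was 0.0702 without FO replicate 3, 0.0653 without MZ replicate 1 and 0.0610 without MZ replicate 2. Between BDL and FO the log2 difference was 0.22 with an adjusted p of 0.487, and the ranges overlapped although BDL was higher on all 3 dates. The 7 plasma cell markers, which include Tnfrsf17 as the 1 under the minimum and of which none was at 0 in all libraries, summed to 522 to 608 FPKM in MZ, 284 to 329 FPKM in FO and 280 to 323 FPKM in BDL. Most of that sum was Mzb1 and Irf4, which were abundant in all subsets. Mzb1 averaged 308, 101 and 133 FPKM in MZ, FO and BDL, and Irf4 230, 179 and 137 FPKM. Prdm1 and Igj were also highest in MZ. Prdm1 averaged 4.39, 0.527 and 0.930 FPKM in MZ, FO and BDL, and Igj 1.74, 0.760 and 1.30 FPKM. Sdc1 was lowest in MZ, at 0.177 FPKM against 1.499 FPKM in FO and 8.47 FPKM in BDL. Xbp1 averaged 19.9, 18.2 and 16.0 FPKM in MZ, FO and BDL. Whether these markers bear on the BAFFR difference was not tested.

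Tnfrsf13b encodes TACI, which binds BAFF and APRIL and takes part in T cell-independent antibody responses, and it lies on chromosome 11 from 60940257 to 60962874 of NCBIM37 on the plus strand. Its FPKM was 33.2, 22.5 and 36.8 in FO, 34.5, 25.4 and 32.0 in BDL, and 36.3, 29.0 and 43.7 in MZ. The subsets overlapped, and replicate 2 was the lowest library in each of them. The log2 difference was 0.01 between BDL and FO with an adjusted p of 0.985, -0.24 between BDL and MZ with 0.470, and -0.25 between FO and MZ with 0.466. Tnfrsf17, which encodes BCMA, was listed at 0 in all 6 FO and BDL libraries and at 0.0282, 0.0727 and 0 FPKM in MZ, which stands for about 1, 4 and 0 fragments. In the fits without a minimum on level, its adjusted p was below 0.05 in 1 of 12 settings for each comparison with MZ, at 0.0139 against BDL and 0.0141 against FO without MZ replicate 3, the MZ library listed at 0, and reached 0.280 and 0.293 in others.

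Taken within each library, where the scaling of the library drops out, the FPKM of Tnfrsf13c per FPKM of Tnfrsf13b was 3.07, 4.29 and 3.36 in FO, 3.39, 4.26 and 4.71 in BDL, and 1.58, 1.95 and 1.83 in MZ. The highest MZ library was thus below the lowest library of the other subsets, on every date. The ratio averaged 3.57 ± 0.639 in FO, 4.12 ± 0.671 in BDL and 1.79 ± 0.187 in MZ (SD, n = 3 each). On the log2 scale, with 0.1 added, TACI relative to BAFFR differed by -1.20 between BDL and MZ and by -0.99 between FO and MZ, each with a two-sided exact permutation p of 0.1, the smallest possible here. Between BDL and FO the difference was -0.21 with an exact permutation p of 0.3, and the dates did not share a sign.

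**Figure D2:**
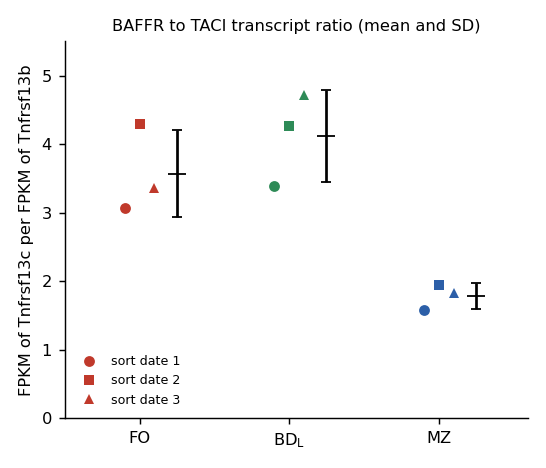
FPKM of Tnfrsf13c (BAFFR) per FPKM of Tnfrsf13b (TACI) in each library, with the sort date by symbol and the mean and SD of 3 libraries beside the points. The MZ libraries lie between 1.58 and 1.95, below all FO and BDL libraries, which lie between 3.07 and 4.71.

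CD40 transcript averaged lowest in BDL and passed at the adjusted p alone against MZ but not against FO. Cd40, on chromosome 2 from 164881127 to 164898448 of NCBIM37 on the plus strand, encodes the receptor through which B cells receive help from T cells carrying CD40 ligand. Its FPKM was 53.3, 46.3 and 51.6 in FO. It was 39.3, 37.4 and 35.6 in BDL. In MZ it was 53.5, 51.1 and 66.3, and all BDL libraries lay below all 6 others. MZ (57 ± 8.17, SD, n = 3) was 1.52 times as high as BDL (37.4 ± 1.85, SD, n = 3), a log2 difference of -0.60 for BDL over MZ with a standard error of 0.11 and an adjusted p of 0.00560, and the adjusted p was below 0.05 in 25 of 25 other settings. FO (50.4 ± 3.69, SD, n = 3) was 1.35 times as high as BDL, with a log2 difference of -0.43 for BDL over FO, but the adjusted p was 0.0590. It was 0.0354 with the sort date as a replicate block, where 2 receptors passed at an adjusted p alone against 20.5% of all rows. Of 25 other settings, 6 gave an adjusted p below 0.05, among them upper quartile scaling at 0.0172 and the fit without MZ replicate 3 at 0.0230, and the range over all of them was 0.0171 to 0.200. FO and MZ overlapped, with a log2 difference of -0.17 and an adjusted p of 0.325. The study's flow cytometry found slightly less CD40 protein on BDL than on FO, a measure of the cell surface and not of transcript.

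GITR transcript was highest in MZ and did not separate BDL from FO. Tnfrsf18, on chromosome 4 from 155400273 to 155403004 of NCBIM37 on the plus strand, encodes GITR, a costimulatory receptor best known on regulatory and activated T cells. Its FPKM was 8.77, 7.37 and 9.20 in FO. It was 9.36, 9.11 and 11.7 in BDL. In MZ it was 14.4, 13.1 and 18.7, and each MZ library exceeded every FO and BDL library. MZ (15.4 ± 2.96, SD, n = 3) was 1.82 times as high as FO (8.44 ± 0.956, SD, n = 3), a log2 difference of -0.85 for FO over MZ with a standard error of 0.16 and an adjusted p of 0.00508 that held below 0.05 in 25 of 25 other settings. MZ was 1.53 times as high as BDL (10.1 ± 1.42, SD, n = 3), with a log2 difference of -0.60 for BDL over MZ and an adjusted p of 0.0245. That adjusted p rose to 0.0750 without BDL replicate 1, 0.0730 without BDL replicate 2 and 0.0561 without MZ replicate 1. It was 0.0502 without MZ replicate 3 and 0.0630 in the fit of the 6 libraries alone, each above 0.05. BDL over FO gave 0.25 with an adjusted p of 0.384. The 11 T cell markers with a row summed to 3.35 to 5.25 FPKM in FO, 3.02 to 5.54 FPKM in BDL and 2.74 to 5.68 FPKM in MZ. These ranges overlapped, and 9 of the markers lay under the minimum with none at 0 in all libraries. Cd4 averaged 0.152, 0.180 and 0.0934 FPKM in FO, BDL and MZ, and Foxp3 0.155, 0.103 and 0.116 FPKM. Whether T cell transcripts bear on the GITR difference was not tested. Of the 7 NK cell markers, 5 lay under the minimum and none was at 0 in all libraries. Their sum was 6.88 to 11.6 FPKM in MZ, 2.61 to 7.19 FPKM in FO and 2.58 to 5.45 FPKM in BDL. Prf1, which encodes perforin, made up most of the MZ sum, at 5.39, 7.26 and 8.85 FPKM against means of 1.44 FPKM in FO and 0.852 FPKM in BDL. Gzma, the other one tested, averaged 1.35 FPKM in MZ, 1.71 FPKM in FO and 1.66 FPKM in BDL, and whether these bear on the GITR difference was not tested.

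TNFR2 transcript followed the sort date as well as the subset. Tnfrsf1b, on chromosome 4 from 144803366 to 144836773 of NCBIM37 on the minus strand, encodes TNFR2, the TNF receptor without a death domain. Its FPKM was 6.35, 11.7 and 6.59 in FO, 4.50, 7.07 and 4.62 in BDL, and 6.99, 14.6 and 8.56 in MZ. Replicate 2 was the highest in each subset, and on all 3 dates BDL was the lowest and MZ the highest. Without the date in the fit, the log2 difference was -0.57 between BDL and FO with an adjusted p of 0.335, -0.85 between BDL and MZ with 0.0958, and -0.28 between FO and MZ with 0.598. With the date as a replicate block the same differences had adjusted p of 0.0105, 7.50e-04 and 0.0484, and 4 and 3 of the 6 receptors then passed at an adjusted p alone between BDL and MZ and between FO and MZ, against 42.7% and 38.8% of rows. Without MZ replicate 2 and with no block, FO over MZ was 0.03 with an adjusted p of 0.965.

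The 10 myeloid markers with a row also had their highest sum on the date of replicate 2. They summed to 8.32, 15.3 and 7.69 FPKM in replicates 1 to 3 of FO, 11.3, 18.7 and 9.71 FPKM in BDL, and 13.2, 24.2 and 13.1 FPKM in MZ, with 4 of the 10 under the minimum and none at 0 in all libraries. Across subsets the myeloid sums of BDL exceeded those of FO on each date, but the markers were mixed. Emr1 and Itgam averaged higher in BDL, at 3.48 and 1.55 FPKM against 0.802 and 0.787 FPKM in FO. Cd68 and Lyz2 averaged lower in BDL, at 4.55 and 1.30 FPKM against 5.34 and 1.43 FPKM in FO. The T cell marker sums were also highest in replicate 2, at 5.25 FPKM in FO, 5.54 FPKM in BDL and 5.68 FPKM in MZ. So were the NK cell sums, at 7.19, 5.45 and 11.6 FPKM in FO, BDL and MZ. The erythroid and platelet sums were instead highest in replicate 1 of each subset. Whether any of the marker sums bear on the date difference in Tnfrsf1b was not tested.

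**Figure D3:**
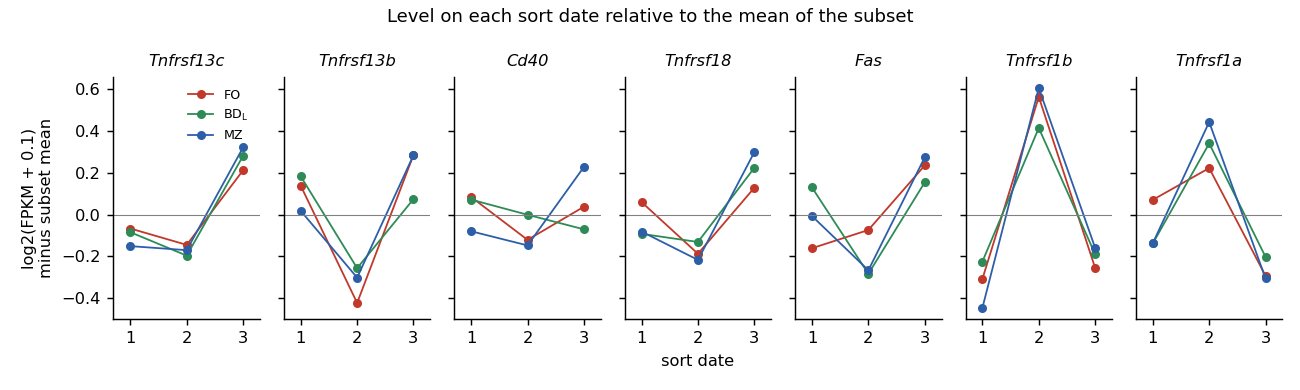
Log2(FPKM + 0.1) of 7 receptors on each sort date minus the mean of the subset, with a line for each subset. For Tnfrsf1b replicate 2 lies 0.41 to 0.61 above the subset mean in all 3 subsets, and for Tnfrsf13b it lies below, from -0.42 to -0.26.

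TNFR1 and the lymphotoxin β receptor were low in every library, and Fas passed no test. Tnfrsf1a, which encodes TNFR1, the death domain receptor of TNF, ranged from 0.0359 to 0.128 FPKM over the 9 libraries, about 4 to 18 fragments, and replicate 2 was again the highest in each subset. Ltbr, which encodes the lymphotoxin β receptor of stromal and myeloid cells, ranged from 0 to 0.0273 FPKM, about 0 to 3 fragments. Fas, the death receptor that rises on activated and germinal centre B cells, had FPKM of 1.93, 2.05 and 2.57 in FO, 2.67, 1.98 and 2.72 in BDL, and 2.59, 2.15 and 3.17 in MZ. The subsets overlapped for Fas, and the largest of its log2 differences was -0.25 for FO over MZ with an adjusted p of 0.368.

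TROY transcript was low in all subsets and highest in BDL. Tnfrsf19, on chromosome 14 from 61582671 to 61665692 of NCBIM37 on the minus strand, encodes TROY, a receptor known mainly from the nervous system and from epithelial stem cells. Its FPKM was 0.132, 0.168 and 0.171 in FO, about 36, 45 and 47 fragments. It was 0.751, 0.629 and 1.15 in BDL, about 193, 182 and 387 fragments. In MZ it was 0.215, 0.227 and 0.260, about 55, 68 and 65 fragments, and the lowest BDL library was above all libraries of FO and MZ. The mean of all 9 libraries, 0.411 FPKM, was under the minimum, so Tnfrsf19 was not among the rows tested. With no minimum, which tests 18518 rows, BDL (0.842 ± 0.271, SD, n = 3) was 5.37 times FO (0.157 ± 0.0213, SD, n = 3) and 3.601 times MZ (0.234 ± 0.0236, SD, n = 3) by the ratio of means. The log2 differences with 0.1 added were 1.84 and 1.46, with adjusted p of 0.00320 and 0.00178. In that fit Tnfrsf19 was the 1 receptor of 10 called between BDL and FO and the 1 called between BDL and MZ, against 1.63% and 6.56% of rows, and 0 were called between FO and MZ, against 7.62%. At an adjusted p alone 1, 4 and 2 of the 10 receptors passed in it, against 5.94%, 21.2% and 21.3% of rows. Both differences kept an adjusted p below 0.05 in 12 of 12 settings without a minimum, from 0.00272 to 0.0195 and from 0.00114 to 0.00998, each library left out in turn among them. With 1 added in place of 0.1 they were 0.66 and 0.57 on the log2 scale, below 2-fold. FO over MZ gave -0.38 with an adjusted p of 0.248. The study picked its differing genes on these same libraries, so the difference is not independent evidence.

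Of the markers of other cells, some had the pattern of Tnfrsf19 and others did not. Hbb-b1, an erythroid haemoglobin gene, was called higher in BDL (5.87 ± 0.665, SD, n = 3) than in FO (1.49 ± 0.462, SD, n = 3) and MZ (2.24 ± 0.749, SD, n = 3), whereas Hba-a1, another, averaged 2.73 FPKM in BDL and 3.55 FPKM in MZ and passed no test. Of 6 plasma cell markers tested, Sdc1, which encodes syndecan-1, was called higher in BDL (8.47 ± 1.43, SD, n = 3) than in FO (1.499 ± 0.244, SD, n = 3) and MZ (0.177 ± 0.0971, SD, n = 3), while Mzb1 and Prdm1 were called lower in BDL than in MZ. Of 6 myeloid markers tested, Emr1, which encodes F4/80, was called higher in BDL (3.48 ± 0.378, SD, n = 3) than in FO (0.802 ± 0.141, SD, n = 3) and MZ (0.687 ± 0.131, SD, n = 3), while Cd68 was called lower in BDL than in MZ. The study lists F4/80 among the surface proteins whose increase its flow cytometry did not bear out. Of the germinal centre markers, the proliferation gene Mki67 was called higher in BDL (3.17 ± 0.159, SD, n = 3) than in FO (0.513 ± 0.0602, SD, n = 3) and was lower in BDL than in MZ (4.505 ± 0.854, SD, n = 3) at an adjusted p of 0.0498 in limma alone. Bcl6 averaged 26.4 FPKM in BDL, 32.5 FPKM in FO and 7.61 FPKM in MZ. Rgs13 averaged 4.64 FPKM in BDL, 0.220 FPKM in FO and 0.150 FPKM in MZ, and it reached the minimum through BDL alone, so no test of it is given. The part of these markers in the Tnfrsf19 difference was not tested.

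**Figure D4:**
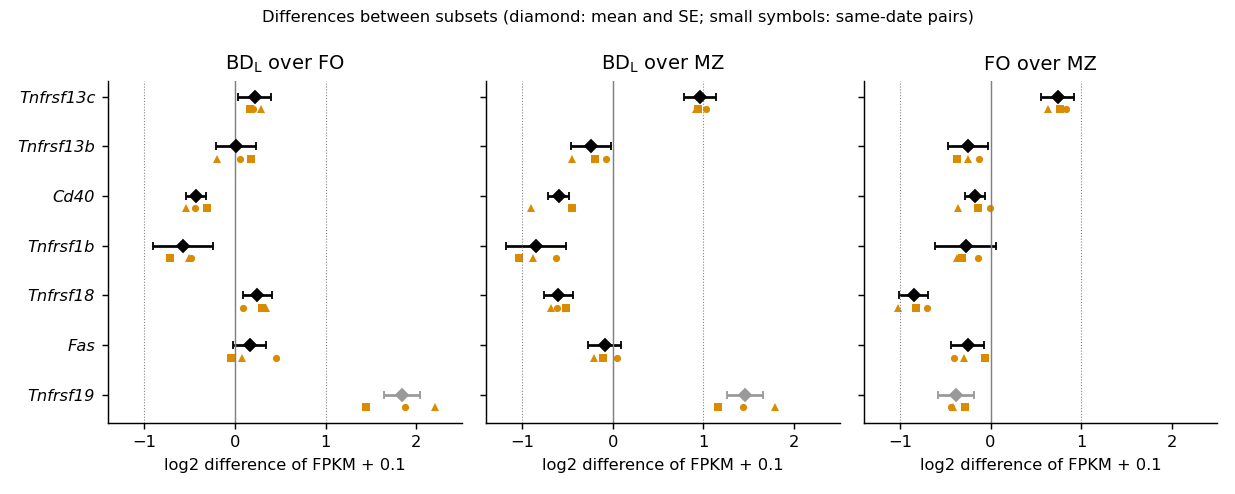
Log2 differences of FPKM + 0.1 for 7 receptors in the 3 comparisons, with diamonds and bars for the mean and its standard error from limma, small symbols for the same-date pairs, dotted lines at 2-fold and Tnfrsf19 in grey from the fit without a minimum. Tnfrsf13c over MZ lies at 0.96 for BDL and 0.74 for FO, Cd40 lies below 0 for BDL on every date, and Tnfrsf19 lies beyond 2-fold for BDL against both other subsets.

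Of the 18 other receptors of the superfamily, 11 were tested, 7 lay under the minimum, and Tnfrsf11b and Eda2r were listed at 0 in every library. Between BDL and FO 1 was called higher and 0 lower. Between BDL and MZ 1 was called higher and 1 lower, and between FO and MZ 2 were called higher and 1 lower. Of all rows, 1.91%, 7.8% and 8.92% were called in either direction. Their median log2 differences were -0.15, -0.21 and 0.10, against 0.05, 0.06 and 0.01 over all rows tested.

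Tnfrsf21 encodes the death receptor DR6. It was graded over the subsets, at 1.25, 1.33 and 1.12 FPKM in FO, 2.51, 2.95 and 3.08 FPKM in BDL, and 6.13, 5.99 and 8.75 FPKM in MZ, with no overlap. It rose by 1.14 on the log2 scale in BDL over FO (adjusted p 0.00542) and was lower in BDL than in MZ, at -1.24 (adjusted p 7.68e-04), and in FO than in MZ, at -2.38 (adjusted p 1.97e-05). The first of these was 0.78 with 1 added, under 2-fold. Ngfr, the p75 neurotrophin receptor, averaged 3.004 FPKM in FO, 2.47 FPKM in BDL and 0.581 FPKM in MZ, and was called higher than MZ in both follicular subsets, by 2.19 and 1.90 on the log2 scale. Tnfrsf12a, the receptor of TWEAK, was 3.54 ± 0.785 FPKM in FO and 1.46 ± 0.188 FPKM in MZ (SD, n = 3 each), a log2 difference of 1.21 with an adjusted p of 0.00675. With 1 added it was 0.87, under 2-fold.

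Of the 9 ligands of these receptors, 3 were tested. Ltb, which encodes lymphotoxin β, was abundant, averaging 311 FPKM in FO, 400 FPKM in BDL and 260 FPKM in MZ, and passed no test. Tnf was 2.496, 2.33 and 1.24 FPKM in BDL and 4.38, 5.22 and 3.48 FPKM in MZ, with no overlap. It was the 1 ligand called, with a log2 difference of -1.11 for BDL over MZ and an adjusted p of 0.0172. The adjusted p became 0.0569 without MZ replicate 1, 0.0629 without MZ replicate 2 and 0.0539 in the fit of the 6 libraries alone. The difference was -0.81 without BDL replicate 3 and -0.84 with 1 added, both under 2-fold. Between BDL and FO, BDL and MZ, and FO and MZ, 0, 1 and 0 ligands were called, against 1.91%, 7.8% and 8.92% of all rows. Lta, which encodes lymphotoxin α, averaged 16.4 FPKM in FO, 10.2 FPKM in BDL and 17.6 FPKM in MZ, and was lower in BDL at the adjusted p alone, by -0.77 against MZ (0.00477) and -0.68 against FO (0.0273). The latter was lost at 0.105 without FO replicate 1, 0.109 without FO replicate 3, 0.0696 without BDL replicate 2 and 0.0649 without BDL replicate 3. With 3 ligands tested, the median log2 difference was in each comparison that of Lta and adds nothing to it. It was -0.68 between BDL and FO, -0.77 between BDL and MZ and -0.10 between FO and MZ, against 0.05, 0.06 and 0.01 over all rows tested. Tnfsf13b (BAFF) and Cd40lg (CD40 ligand), which other cells make, were under the minimum, with means of at most 0.103 and 0.134 FPKM in any subset. Tnfsf18, which encodes GITR ligand, was also under it, at 0.0938, 0.115 and 0.103 FPKM in FO, 0.317, 0.235 and 0.252 FPKM in BDL, and 0.765, 0.689 and 0.592 FPKM in MZ, so that the subsets did not overlap and MZ was highest for GITR and for its ligand. From its own comparison of these libraries the study reports more Tnfsf18 transcript in BDL than in FO. Its flow cytometry also found more GITR ligand protein on BDL than on FO.

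All 32 adaptors and proximal signalling genes were tested. Between BDL and FO 1 was called higher and 1 lower, between BDL and MZ 1 higher and 2 lower, and between FO and MZ 0 higher and 1 lower, against 1.91%, 7.8% and 8.92% of all rows in either direction. The medians were -0.14, 0.01 and 0.08 on the log2 scale. At an adjusted p alone the counts were 1 higher and 3 lower, 2 higher and 6 lower, and 5 higher and 4 lower, against 7.73%, 28.1% and 27.1% of all rows, so that the shares for the comparisons with MZ were close to those of all rows. Tifa, an adaptor that binds TRAF6, was 13.4, 18.7 and 16.2 FPKM in BDL against 6.77, 5.99 and 7.06 FPKM in FO and 5.37, 4.50 and 6.21 FPKM in MZ. BDL did not overlap the others, with log2 differences of 1.26 (adjusted p 0.00316) and 1.57 (adjusted p 1.64e-04).

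Traf1, an NF-κB target that tunes signals of TNFR2 and CD40, ran the other way. It was 6.57, 5.93 and 3.51 FPKM in BDL, 12.7, 10.5 and 11.0 FPKM in FO, and 34.2, 34.5 and 31.8 FPKM in MZ, with no overlap. BDL over MZ was -2.67 with an adjusted p of 5.21e-05, and FO over MZ was -1.55 with 8.78e-04. BDL over FO was -1.12 with an adjusted p of 0.0179, which became 0.0786 without FO replicate 1 and 0.0688 without FO replicate 3. The adjusted p was 0.0623 in the fit of the 6 libraries alone. The difference fell short of 2-fold, at -0.85 without BDL replicate 3 and at -0.997 with 1 added. Traf4 was 11.6 ± 0.492 FPKM in BDL and 25.5 ± 5.21 FPKM in MZ (SD, n = 3 each), a log2 difference of -1.11 with an adjusted p of 8.74e-04, and of -0.9996, just short of 2-fold, without MZ replicate 3. Traf5, an adaptor of CD40 signalling, was lower in BDL (32.4 ± 2.17 FPKM, SD, n = 3) than in FO (49.0 ± 0.927 FPKM) at the adjusted p alone, with -0.60 and 0.00318, and lower than in MZ (43.5 ± 0.822 FPKM) with -0.42 and 0.00355. Map3k14, which encodes NIK, averaged 22.3 FPKM in FO, 16.7 FPKM in BDL and 21.3 FPKM in MZ and passed no test, the adjusted p being 0.0832 for BDL over FO.

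**Figure D5:**
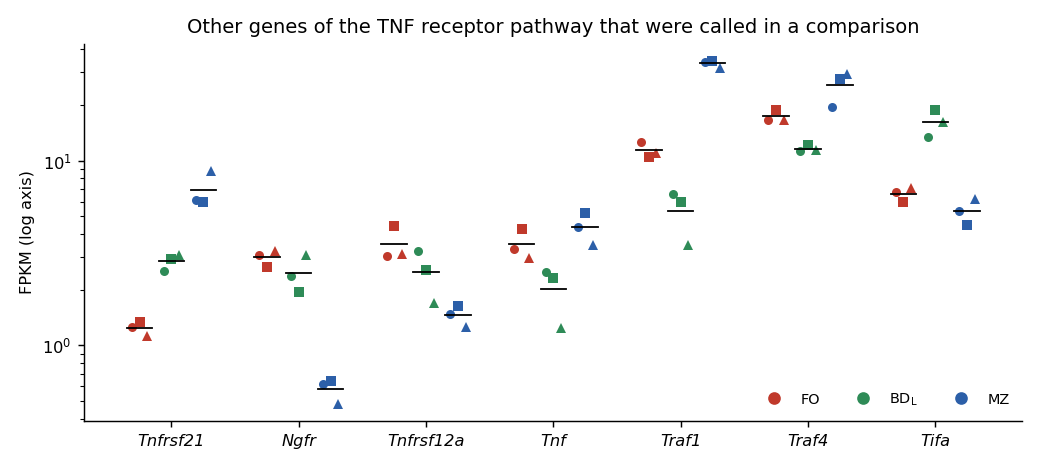
FPKM on a log axis of the 3 other receptors, the ligand and the 3 adaptors that were called in at least 1 comparison, in the 9 libraries, with a bar at the mean of 3 libraries and the sort date by symbol shape (circle 1, square 2, triangle 3). Traf1 and Tnfrsf21 are highest in MZ, Ngfr is lowest in MZ, and Tifa is highest in BDL.

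Since no receptor was called, the rows most like a receptor in pattern were looked up, after the values were seen, for the 3 that passed an adjusted p and for Tnfrsf19, by Pearson's r of log2(FPKM + 0.1) over the 9 libraries, which share depth and date. Tnfrsf13c was most like Atxn7l3 (0.993), Rbm19 (0.992) and Sec14l1 (0.991). Tnfrsf18 was most like Ado (0.991), Snx20 (0.990) and Atf6 (0.987). Cd40 was most like Rab23 (0.972), Abl1 (0.972) and Fbxo21 (0.968). Tnfrsf19 was most like Pim2 (0.997), Ephx1 (0.989) and Phf11b (0.988), and Pim2, which encodes a survival kinase of lymphocytes, averaged 20.9 FPKM in BDL against 11.8 FPKM in FO and 13.4 FPKM in MZ. These values describe likeness over 9 libraries and carry no test.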

How the data were processed

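RNA-seq of 3 libraries each of FO, BDL and MZ B cells was analysed, grouped by the labels. Per the labels and the study's methods, the authors aligned reads to mm9 with TopHat2 2.1.0 and computed FPKM with Cufflinks, whose version and gene annotation are not given in the sources used here. The deposited FPKM were used without further scaling. The labels describe single-end reads without strand information and the study's methods a stranded kit. The flow cytometry and the authors' Cuffdiff comparisons, which hold fold changes and p-values, were not analysed here. Where cited, they stand as the study's text gives them.

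Rows averaging 0.5 FPKM or more were tested on log2(FPKM + 0.1) by limma 3.58.1, run under R 4.3.3 with lmFit, contrasts and eBayes with a trend. All 9 libraries entered, the subset was the sole term, with Benjamini-Hochberg adjustment over 11597 rows. For the BAFFR to TACI ratio an exact permutation test, two-sided, was used (scipy 1.17.1). Figures used matplotlib 3.10.9. On simulated data for BDL over FO with 11597 genes, 83% of the 200 genes given a log2 change of 1.5 were called, with 3 false calls. Depth was estimated from low values of transcripts of at least 3000 nt, of which 67.1% to 75% lay within 0.1 of a whole fragment, so whole counts were not recovered. P-values measure the spread between pooled sorts.

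The dates in the titles pair the libraries. The correlation across genes of same-date deviations from the subset means was 0.147, -0.062 and 0.049 between BDL and FO, 0.1, 0.182 and 0.244 for BDL with MZ, and 0.024, 0.008 and 0.014 for FO with MZ. The date was tried as a block, since the study's methods describe none.

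The receptors, lists and tests were chosen with earlier results of these data known. The text names all 10 receptors and, of the lists of other receptors, ligands and adaptors, each gene called in a comparison. Lta, Ltb, Tnfsf13b, Cd40lg, Tnfsf18, Traf5, Map3k14 and the markers named beside a result were named after their values were seen. A few marker genes are not reported here. Gene positions are from GENCODE M1 on NCBIM37, and start windows from RefSeq GRCm38.p6. Alternatives were 0.01 or 1 added, a minimum of 1 FPKM or none, 6 libraries, the date block, quantile normalization, scaling by the upper quartile, eBayes robust or with no trend, symbols summed, no fold minimum and each library left out. A minimum of 0.1 FPKM and combinations of these were added after the data were seen.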

Additional observations from a re-analysis of the deposited data

How the results depend on the processing

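The count of 0 receptors called changed where low rows were let in or the fold minimum was dropped. Between BDL and FO it was 1 with no minimum, also with the date as a replicate block, with 0.01 added or with an adjusted p alone, 1 with a minimum of 0.1 FPKM, with or without the replicate block, and 2 with the replicate block and an adjusted p alone. Between BDL and MZ it was 1 in the same settings with a fold minimum, from 0 to 1 with single libraries left out, 3 at an adjusted p alone, and 4 at an adjusted p alone with the replicate block or with no minimum. Between FO and MZ it was 2 at an adjusted p alone, with or without a minimum on level, and 3 with the replicate block. The replicate block moved no adjusted p of a receptor tested across 0.05 other than those of Cd40 between BDL and FO and of Tnfrsf1b given above.

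Of 612 fold changes of single receptors under an alternative, 566 kept their side of the threshold and, for receptors tested, their direction, or moved by less than the spread. A change of sign occurred in 19, of which 9 were of receptors tested and 10 of receptors under the minimum, 7 of Tnfrsf1a and 3 of Ltbr, with single libraries left out. Tnfrsf13b between BDL and FO went from 0.01 to -0.0567 with upper quartile scaling and -0.0612 with quantile normalization, and ranged from -0.20 to 0.15 with single libraries left out, below 0 without FO replicate 2, BDL replicate 1 or BDL replicate 3. Fas between BDL and MZ went from -0.09 to 0.0345 with quantile normalization and ranged from -0.22 to 0.0509 with single libraries left out, above 0 without BDL replicate 2 or MZ replicate 3. Tnfrsf1b between FO and MZ ranged from -0.56 to 0.0270, above 0 without MZ replicate 2. None of these passed the test, and the cause was not tested. The TACI to BAFFR differences kept their direction in the alternatives run. Upper quartile scaling and quantile normalization moved the median of all rows by less than 0.1 on the log2 scale. Depth limits Tnfrsf17, Ltbr and Tnfrsf1a, which rest on 0 to 18 estimated fragments per library, so their differences are poorly resolved.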
